A study of Mus musculus with 51 samples.

Results

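The question here was which transcripts differed in AKT1 transgenic ventral prostate between 12 h and 48 h of treatment with RAD001 (everolimus), an inhibitor of the kinase mTOR. The comparison holds 9 of the 51 arrays of the series, 5 labelled RAD001 12 h (replicates 1 to 5) and 4 labelled RAD001 48 h (replicates 1, 2, 4 and 5), with arrays taken by their treatment and time labels. All mice were of the FVB strain, 8 to 10 weeks old and on a standard diet, and the glands of both times carried the AKT1 transgene and received RAD001. Transgenic mice on placebo gave 4 arrays at 12 h and 5 at 48 h, and wild type mice on placebo gave 4 at each time. The sources used here do not give the dose, the vehicle or the promoter that drives the transgene. Affymetrix arrays measured total RNA of each sample as 1 intensity per probe set, and values are log2 intensities with a floor at 4. The labels call the arrays biological replicates. The p-values rest on the spread within groups, pooled over 42 arrays of 9 groups and not over the compared arrays alone. The number of arrays limits the precision. In whole glands, fewer cells of a type and less RNA per cell cannot be told apart.

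AKT1 acts upstream of mTOR, a kinase that raises protein synthesis, lipid and sterol synthesis and glycolysis and that restrains autophagy and lysosome formation. RAD001 binds FKBP12 and blocks mTOR complex 1. Ventral prostate epithelium is a secretory tissue, so it holds much endoplasmic reticulum (ER), where secreted proteins are folded by chaperones such as BiP. When folding demand exceeds capacity, the unfolded protein response raises the transcription of those chaperones through the factors ATF6 and XBP1. Lysosomes degrade proteins and organelles, and many of their genes carry a site for the factors TFEB and TFE3, which mTOR complex 1 holds in the cytoplasm.

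No transcript passed the test between 48 h and 12 h of RAD001. Of 9627 features tested with limma, 0 (0%) had a Benjamini-Hochberg adjusted p under 0.05, and the smallest was 0.0535, for Ahsa1. At an unadjusted p under 0.05, 529 features lay higher at 48 h (5.49%) and 510 lower (5.3%). All 48 h arrays lay above all 12 h arrays for 224 features (2.33%) and below them for 147 (1.53%). The values that follow are therefore descriptions of these arrays, read against those shares. Other settings of the same fit called some features, from 0 to 16 when 1 RAD001 array was left out and 65 with array weights. With only the compared groups fitted, 0 passed and the smallest limma adjusted p was 0.326.

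The glands on placebo set the scale of change without drug. Transgenic placebo glands gave 0 features (0%) at the adjusted threshold and 486 (5.05%) at an unadjusted p under 0.05 between the same times. Wild type placebo glands, in contrast, gave 1650 (17.1%) at the adjusted threshold, and 995 without 12 h replicate 2. The difference between the RAD001 change and the transgenic placebo change passed for 1 feature (0.0104%), a probe set annotated to 2 genes, at 0.95 ± 0.18 (SE) with an adjusted p of 0.0394. RAD001 against transgenic placebo at the same time, which shares arrays with these comparisons, passed for 142 features (1.48%) at 12 h and 341 (3.54%) at 48 h.

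A pair of arrays stood apart. RAD001 48 h replicate 4 correlated with the other 8 at a median r of 0.873, against 0.920 to 0.950 for the rest, and had 55 otherwise well-detected features at the floor, against 1 to 11. RAD001 12 h replicate 4 had the next lowest median r (0.920) and lay apart on the second principal component. The median of all features was -0.0044 between the times under RAD001. Without both arrays 352 features lay higher and 316 lower at an unadjusted p under 0.05.

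Genes of protein folding in the ER lay higher at 48 h of RAD001, at unadjusted p-values. Of 22 genes listed as ER chaperones and unfolded protein response, all 22 were measured, 18 lay higher at 48 h, and 11 did so at an unadjusted p under 0.05 (50%, against 5.49% of all features). None lay lower at that p, and none passed the adjusted threshold. The list's median was 0.29 under RAD001, 0.08 in transgenic placebo and 0.03 in wild type placebo glands.

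The promoters of these genes are shown first, because many hold the ER stress response element, the site that ATF6 and XBP1 are known to use. The element was searched as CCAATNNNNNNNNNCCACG on both strands, in the 250 bases before and 50 after the start of each gene in RefSeq's table for GRCm38.p6. It was present in 39 of 32851 promoters (0.119%) and in 8 of the 19 list members with an entry: Hspa5, Creld2, Pdia6, Syvn1, Hsp90b1, Calr, Canx and Dnajc3. A second form, ERSE-II, with ATTGG and CCACG 1 base apart, was in 12 promoters (0.0365%), those of Dnajb11 and Herpud1 among them. The 250 bases before the start of Hspa5 lie at chr2:34771840-34772089 (plus strand), with the fixed letters of the element in capitals, 65 bases before the start:
Hspa5: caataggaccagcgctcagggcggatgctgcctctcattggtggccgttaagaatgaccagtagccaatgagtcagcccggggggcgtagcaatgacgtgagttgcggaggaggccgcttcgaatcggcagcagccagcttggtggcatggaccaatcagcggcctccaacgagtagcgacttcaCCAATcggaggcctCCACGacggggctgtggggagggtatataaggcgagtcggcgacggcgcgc
Windows of 60 bases around the element follow for the other genes with a match before the start (that of Dnajb11 lies after it, and no window is shown), 5′ to 3′ on the gene's strand, in the order of their difference between the times. An element read on the opposite strand appears as its reverse complement, and again the capitals mark its fixed letters. Creld2 lies at chr15:88819500-88819559 (plus strand), Syvn1 at chr19:6046512-6046571 (plus strand), Pdia6 at chr12:17266471-17266530 (plus strand) and Hsp90b1 at chr10:86705512-86705571 (minus strand):
Creld2: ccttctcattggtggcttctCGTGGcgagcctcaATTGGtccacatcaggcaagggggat
Syvn1: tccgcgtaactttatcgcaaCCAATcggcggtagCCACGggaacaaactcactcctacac
Pdia6: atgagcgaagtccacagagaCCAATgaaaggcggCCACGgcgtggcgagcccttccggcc
Hsp90b1: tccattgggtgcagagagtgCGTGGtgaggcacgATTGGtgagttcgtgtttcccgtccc
Calr lies at chr8:84847054-84847113 (minus strand), Dnajc3 at chr14:118937807-118937866 (plus strand), Canx at chr11:50325779-50325838 (minus strand) and Herpud1, with the second form, at chr8:94386353-94386412 (plus strand):
Calr: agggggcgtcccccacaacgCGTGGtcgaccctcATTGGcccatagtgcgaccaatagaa
Dnajc3: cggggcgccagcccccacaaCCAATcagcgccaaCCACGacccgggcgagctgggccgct
Canx: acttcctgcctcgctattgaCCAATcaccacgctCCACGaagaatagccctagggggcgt
Herpud1: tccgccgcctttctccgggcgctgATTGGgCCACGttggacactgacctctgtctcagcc
These genes share the letters of the element and differed in their values. Of the 8 with the first form, 4 (Hspa5, Creld2, Syvn1 and Pdia6) lay higher at 48 h at an unadjusted p under 0.05, and Hsp90b1, Calr, Dnajc3 and Canx did not, with differences from -0.03 to 0.21 on the brightest probe set of each. Of the other 4 probe sets of Dnajc3, 1 lay higher at that p (0.49 ± 0.15, unadjusted p 0.0020). A match is a description of the letters and not of binding.

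Hspa5 encodes BiP, the main HSP70 chaperone of the ER lumen. Its log2 intensity was 11.52, 11.44, 11.58, 11.09 and 11.47 on the 12 h arrays and 11.67, 12.29, 12.46 and 12.29 on the 48 h arrays. All 48 h arrays lay above all 12 h arrays, by 1.69-fold on average (log2 0.76 ± 0.18 SE), with an unadjusted p of 0.00014 and a limma adjusted p of 0.082. Placebo arrays spread more widely, from 11.33 to 12.19 at 12 h and from 11.19 to 12.39 at 48 h, with a difference of 0.16 ± 0.18. The 48 h RAD001 arrays overlapped the placebo arrays. Of the 12 h RAD001 arrays, replicate 4 lay below all placebo arrays and the rest lay among them. RAD001 against placebo was -0.36 ± 0.18 at 12 h and 0.23 ± 0.18 at 48 h, and neither passed the test. At 15 d the mean was 12.30 ± 0.14 (SD, n = 6) with RAD001 and 12.47 ± 0.11 (SD, n = 7) with placebo in transgenic glands.

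Manf, a secreted ER stress protein that binds BiP, stood at 10.17, 10.34, 10.34, 9.98 and 10.29 at 12 h and at 10.52, 11.31, 11.36 and 10.94 at 48 h. Creld2, another ER stress-induced protein, stood at 9.99, 10.29, 10.35, 9.46 and 10.32 at 12 h and at 10.38, 11.34, 11.47 and 11.13 at 48 h. The times did not overlap for either gene, although Creld2 of 48 h replicate 1 lay only just above the 12 h arrays. Manf was 1.75-fold and Creld2 2.00-fold higher at 48 h (0.81 ± 0.20 and 1.0 ± 0.25), both with a limma adjusted p of 0.123, against 0.13 ± 0.20 and 0.31 ± 0.25 with placebo.

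Derl3, a derlin that acts in the degradation of misfolded ER proteins, had a larger difference still. It is not a member of the list and is named for its p. Its values were 9.36, 9.52, 9.42, 8.44 and 9.63 at 12 h and 10.06, 10.73, 10.32 and 10.56 at 48 h, a 2.21-fold difference (1.14 ± 0.29, adjusted p 0.123 in limma). The times did not overlap. RAD001 exceeded placebo by 1.23 ± 0.29 at 48 h, which passed the test (adjusted p 0.013), and by 0.47 ± 0.29 at 12 h, which did not.

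The co-chaperones showed smaller differences. Dnajb11, an HSP40 partner of BiP, stood between 8.65 and 8.79 at 12 h and at 8.93, 9.42, 9.23 and 9.31 at 48 h (0.49 ± 0.13). Hyou1, a large HSP70-related chaperone, was tightly grouped between 9.90 and 9.96 at 12 h and stood at 10.05, 10.67, 10.55 and 10.57 at 48 h (0.53 ± 0.15), with 0.12 and 0.23 on its other 2 probe sets. Neither gene overlapped between the times, and for both the 48 h array nearest to 12 h was replicate 1. Dnajb9, a BiP co-chaperone that acts on the sensor IRE1, did overlap, at 9.99, 10.34, 10.26, 8.54 and 9.99 against 10.06, 10.90, 10.63 and 10.39 (0.67 ± 0.27). Its low 12 h value is that of replicate 4, and without that array the difference was 0.35, or 0.30 without both arrays numbered 4. Sdf2l1, an ER chaperone subunit, did not overlap between the times, with 8.76 to 9.40 at 12 h and 9.53 to 10.11 at 48 h, but the standard error of its difference in the fit was 0.60.

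Genes of protein entry into the ER and of its quality control lay higher by less. Sec61a1, the channel of the translocon, stood at 10.51, 10.54, 10.49, 9.97 and 10.34 at 12 h and at 10.65, 10.70, 10.72 and 10.75 at 48 h, with no overlap (0.34 ± 0.12). Its 6 probe sets ran from -0.33 to 0.42. Sec61b, a small translocon subunit, differed by 0.20 ± 0.07 and Ssr1, a translocon-associated protein, by 0.24 ± 0.12. A second probe set of Ssr1 gave -0.25 ± 0.12, so its probe sets opposed each other. The disulphide isomerase Pdia6 differed by 0.34 ± 0.15 and Syvn1, a ubiquitin ligase of the ER membrane, by 0.41 ± 0.18, both with overlapping arrays. The other Pdia6 probe set gave -0.14 ± 0.11.

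Other members of the list did not pass the unadjusted p on their brightest probe set. Pdia4, an isomerase, differed by 0.41 ± 0.22 and Sel1l, a partner of Syvn1, by 0.14 ± 0.22. Xbp1, the transcription factor, differed by 0.13 ± 0.24, and the array cannot tell its spliced form from the unspliced. The lectin chaperones Calr and Canx differed by 0.08 ± 0.14 and -0.03 ± 0.10, and Pdia3, their partner, by -0.13 ± 0.15. Hsp90b1, the ER HSP90, differed by 0.21 ± 0.17, Dnajc3 by 0.04 ± 0.15 and Edem1, which routes glycoproteins to degradation, by -0.13 ± 0.16. The other 4 probe sets of Dnajc3 gave 0.29 to 0.49. A second probe set of Hsp90b1 gave -1.32 ± 0.69 and one of Edem1 0.76 ± 0.31. Herpud1, a membrane protein of ER-associated degradation, differed by -1.50 ± 0.76, with 48 h replicate 4 at the floor of 4 and the other 48 h arrays at 10.78, 11.97 and 11.81. Without that array its difference was 0.38.

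**Figure D1:**
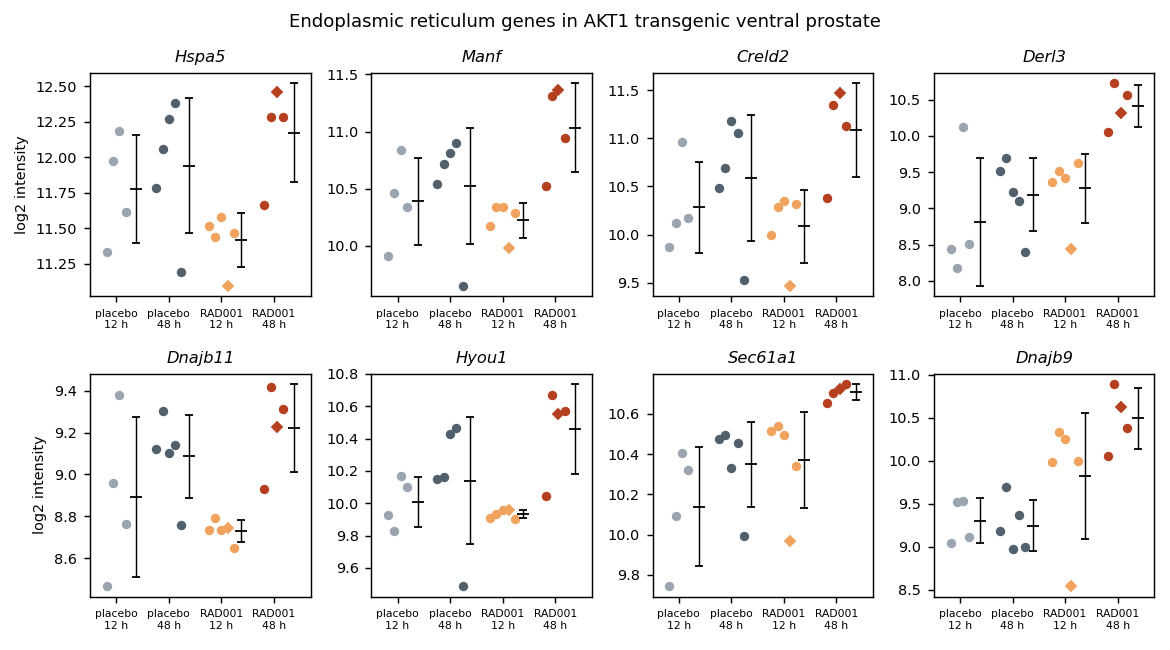
Log2 intensity (y axis) of 8 ER genes in AKT1 transgenic glands, by treatment and time. Points are arrays, diamonds are the RAD001 arrays numbered 4, and bars give mean ± SD. For Hspa5, Manf, Creld2, Derl3, Dnajb11, Hyou1 and Sec61a1 all 48 h RAD001 points lie above all 12 h RAD001 points, while the points of Dnajb9 overlap.

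The ER list rested in part on the arrays that stood apart. The median deviation of its members from their 12 h RAD001 mean ran from -0.12 to 0.12 at 12 h, lowest on replicate 4. At 48 h it was 0.11 on replicate 1 and 0.38, 0.40 and 0.38 on replicates 2, 4 and 5. Placebo arrays ran from -0.13 to 0.24 at 12 h and from -0.35 to 0.33 at 48 h, so 3 of the 4 RAD001 arrays at 48 h lay above all placebo arrays and replicate 1 lay among them. Members higher at an unadjusted p under 0.05 numbered 7 without 12 h replicate 4, 7 without 48 h replicate 2 and 5 without both arrays numbered 4, where the median was 0.24. The difference between the RAD001 and the placebo change had an unadjusted p under 0.05 for 4 members (Hspa5, Manf, Sec61b and Syvn1), and for none an adjusted p under 0.05. All 4 differences of the 22 measured were positive, as were 373 of all 9627 features at that unadjusted p.

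Chaperones and co-chaperones of the cytosol and mitochondria lay higher for a few members. Ahsa1, which activates the ATPase of HSP90, had the smallest p of all named genes. It stood at 8.69, 8.72, 8.91, 8.26 and 8.65 at 12 h and at 9.11, 9.24, 9.30 and 9.11 at 48 h, with no overlap. The difference was 1.46-fold (0.54 ± 0.10, limma adjusted p 0.0535), against -0.05 ± 0.10 in transgenic placebo glands. In wild type placebo glands Ahsa1 rose by 0.58 (adjusted p 0.00054). Of 23 alternatives, 13 gave Ahsa1 an adjusted p under 0.05. Of 13 measured heat shock chaperones, 2 lay higher at an unadjusted p under 0.05 (15.4%, against 5.49% of all features). At that p 1 lay lower (7.69%, against 5.3%), and the list's median was 0.33. Hspe1, the mitochondrial chaperonin partner of Hspd1, stood between 7.22 and 7.45 at 12 h and at 8.15, 7.87, 8.55 and 7.69 at 48 h (0.75 ± 0.21). Hsph1, an HSP110, differed by 1.33 ± 0.57, with its lowest value, 5.93, on 12 h replicate 4. Cryab, a small heat shock protein, was lower by 0.45 ± 0.19. Dnaja1 read 4 on 48 h replicate 4 and 9.10 to 9.93 on the other 48 h arrays, and a second probe set gave 0.59 ± 0.19.

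Subunits of the proteasome, which degrades ubiquitinated proteins, lay higher by small amounts. Of 27 measured, 22 lay higher at 48 h, where 49.0% of all features did. At an unadjusted p under 0.05, 6 lay higher (22.2%, against 5.49% of all features) and 1 lower (3.7%, against 5.3%). The median was 0.12, against -0.01 in transgenic and 0.27 in wild type placebo glands. Psma6, a subunit of the core ring, stood at 8.81, 9.02, 9.07, 9.09 and 8.91 at 12 h and at 9.38, 9.31, 9.51 and 9.39 at 48 h (0.41 ± 0.12). Its other probe sets gave as little as 0.07. The ATPases of the regulatory cap Psmc2, Psmc3 and Psmc5 differed by 0.38 ± 0.12, 0.32 ± 0.10 and 0.28 ± 0.10. All 48 h arrays lay above all 12 h arrays for 4 members, Psma6, Psmc1, Psmc2 and Psmc5, and for 2.33% of all features.

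Several tubulin genes, which encode the subunits of microtubules, lay below placebo at 12 h of RAD001 and nearer to it at 48 h. Of 17 measured tubulin and actin genes, 4 lay higher at an unadjusted p under 0.05 (23.5%, against 5.49% of all features). At that p 1 lay lower (5.88%, against 5.3%). Tuba4a stood at 10.54, 10.39, 10.55, 10.60 and 10.69 at 12 h and at 11.35, 10.89, 11.30 and 11.35 at 48 h with RAD001, with no overlap (0.67 ± 0.13, adjusted p 0.057 in limma). Placebo arrays read 10.89 to 11.41 at 12 h and 11.04 to 11.52 at 48 h. RAD001 against placebo was -0.63 ± 0.13 at 12 h (adjusted p 0.0089) and -0.05 ± 0.13 at 48 h. Against placebo, Tubb4b stood at -0.95 at 12 h (adjusted p 0.0029) and -0.50 at 48 h, and Tubb5 at -0.42 (adjusted p 0.018) and -0.11, and neither passed at 48 h. For Tuba1a the values were 0.05 and 0.56, and neither passed. Tubb4b differed between the times by 0.54 ± 0.17, Tubb5 by 0.34 ± 0.10 and Tuba1a by 0.54 ± 0.24. That the drug effect differed between the times was not shown, since the adjusted p of the difference in Tuba4a was 0.36.

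Genes of ribosome assembly, which mTOR is known to promote, lay higher at 48 h for a few members. Of 22 measured, 4 lay higher (18.2%, against 5.49% of all features) and 0 lower at an unadjusted p under 0.05. The median was 0.13, against 0.26 in wild type placebo glands. Rrp9, a component of the U3 particle that processes ribosomal RNA, stood at 7.21, 6.96, 7.03, 6.96 and 6.50 at 12 h and at 7.56, 7.43, 7.17 and 7.40 at 48 h (0.46 ± 0.11, adjusted p 0.082). Nop56, a core protein of box C/D particles, differed by 0.78 ± 0.22 and Nop10, of the pseudouridylation complex, by 0.30 ± 0.09. RAD001 against placebo for Nop10 was -0.44 ± 0.09 at 12 h, which passed the test, and -0.03 ± 0.09 at 48 h. Heatr1, needed for RNA polymerase I transcription, differed by 0.53 ± 0.13 and Iars, the cytosolic isoleucyl-tRNA synthetase, by 0.56 ± 0.14. Against placebo Iars stood at -0.62 at 12 h (adjusted p 0.018) and -0.07 at 48 h.

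**Figure D2:**
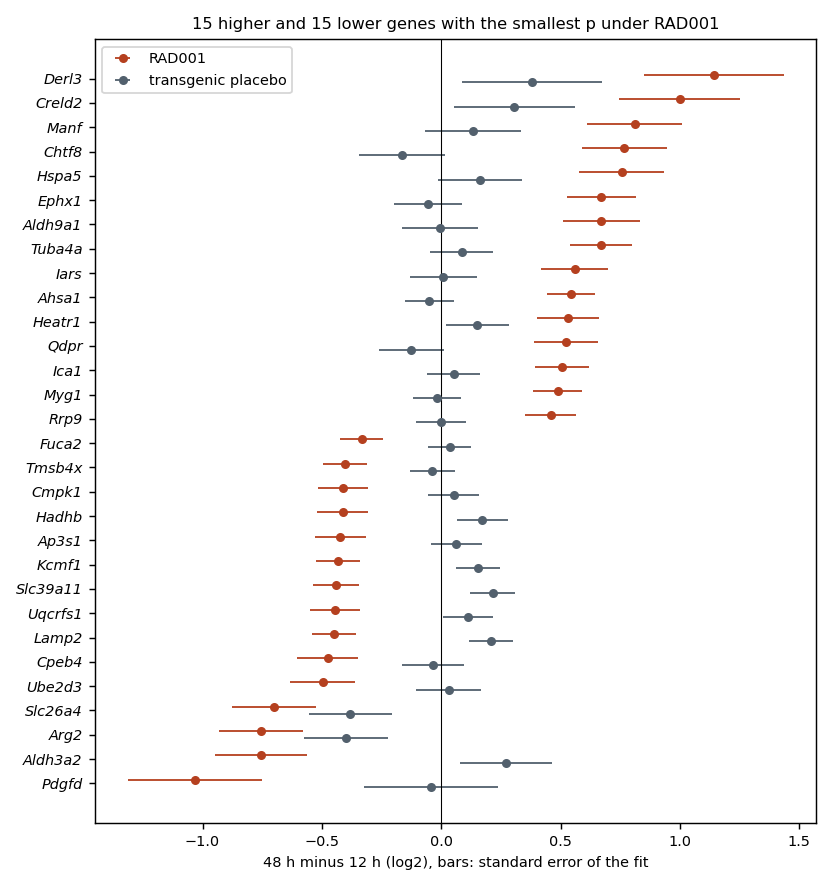
Difference of 48 h minus 12 h (x axis, log2, with the SE of the fit) for the 15 genes on each side with the smallest p under RAD001, beside the same difference in transgenic placebo glands. The genes were picked by the RAD001 values, which run from -1.03 for Pdgfd to 1.14 for Derl3, and none passed the adjusted threshold. Placebo values run from -0.40 for Arg2 to 0.38 for Derl3.

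Lysosomal genes lay lower at 48 h than at 12 h. Of 28 genes listed as lysosome and autophagy, 24 were measured and 21 lay lower, 12 of them at an unadjusted p under 0.05 (50%, against 5.3% of all features). None lay higher at that p, and none passed the adjusted threshold. The median was -0.28 with RAD001 and -0.01 with placebo. RAD001 against placebo had a list median of 0.01 at 12 h and -0.24 at 48 h.

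Lamp2, a protein of the lysosomal membrane, stood at 10.72, 10.64, 10.56, 10.59 and 10.47 at 12 h and at 10.08, 10.31, 10.10 and 10.09 at 48 h. The times did not overlap, and the difference was -0.45 ± 0.09 (limma adjusted p 0.059). Placebo arrays lay from 10.33 to 10.48 at 12 h and from 10.50 to 10.68 at 48 h, a difference of 0.21 ± 0.09 in the other direction. RAD001 against placebo was 0.19 ± 0.09 at 12 h and -0.47 ± 0.09 at 48 h, and only the latter passed the test (adjusted p 0.0030). The 4 probe sets of Lamp2 did not read alike, with differences of -0.45 and -0.39 on a pair and 0.09 and 0.37 on the other pair. The values above are those of the brightest probe set, and the direction of Lamp2 depends on the probe set read.

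Lamp1, the other major membrane protein, stood at 11.46, 11.71, 11.65, 11.69 and 11.39 at 12 h and at 11.36, 11.37, 11.34 and 11.37 at 48 h (-0.22 ± 0.07). The 48 h arrays were tightly grouped just below the lowest 12 h array. Against placebo Lamp1 stood at -0.27 at 48 h (adjusted p 0.017). Gaa and Map1lc3b were the other members whose times did not overlap, Map1lc3b, the autophagosome protein LC3B, with a difference of -0.21 ± 0.09. In all, 4 of the 24 measured lay fully below, against 1.53% of all features.

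Lysosomal hydrolases lay lower with more scatter. Gusb, β-glucuronidase, stood at 8.91, 8.75, 8.75, 9.34 and 7.34 at 12 h and at 8.15, 7.83, 7.88 and 7.53 at 48 h (-0.77 ± 0.27). The 12 h array numbered 5 lay below all 48 h arrays, and without it the difference was -1.09. With all arrays Gusb did not pass the adjusted threshold. Of 23 alternatives, only 1, the fit without that array, gave Gusb a limma adjusted p under 0.05. Against placebo Gusb stood at -1.33 at 48 h (adjusted p 0.0032) and at -0.63 at 12 h, which did not pass. At 15 d it averaged 7.72 ± 0.38 (SD, n = 6) with RAD001, 9.01 ± 0.22 (SD, n = 7) with placebo and 7.19 ± 0.19 (SD, n = 3) in wild type glands. The proteases Ctsl, Ctsb and Ctsz differed by -0.46 ± 0.15, -0.31 ± 0.12 and -0.31 ± 0.14, and Hexa, a hexosaminidase subunit, by -0.36 ± 0.17. Ctsl, Hexa and Ctsd had their lowest 12 h value on replicate 5.

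Subunits of the proton pump and the calcium channel of the lysosome lay lower too. Atp6ap1, an accessory subunit of the vacuolar ATPase, differed by -0.37 ± 0.14 and the catalytic subunit Atp6v1a by -0.28 ± 0.12. Mcoln1, the channel TRPML1, stood at 7.58, 7.67, 7.98, 7.46 and 7.48 at 12 h and at 7.54, 7.04, 7.06 and 7.32 at 48 h (-0.39 ± 0.13). Its other probe set gave -0.01 ± 0.18. Ulk1, the kinase that starts autophagy and an mTOR substrate, differed by -0.31 ± 0.13, and its other probe set by -1.13.

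The element known to be used by TFEB holds TCACGTGA, which reads the same on both strands. It was in 320 of 32851 promoters (0.974%) and in 5 of the 22 measured list members with an entry, Atp6v0d1, Atp6v1a, Ctsa, Ctsd and Mcoln1. It is shown for 3 of them, in windows of 60 bases with the element in capitals, for Mcoln1 at chr8:3500447-3500506 (plus strand), Atp6v1a at chr16:44139358-44139417 (minus strand) and Ctsd at chr7:142387893-142387952 (minus strand):
Mcoln1: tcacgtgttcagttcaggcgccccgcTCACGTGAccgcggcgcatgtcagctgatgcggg
Atp6v1a: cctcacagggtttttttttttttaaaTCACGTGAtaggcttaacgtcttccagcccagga
Ctsd: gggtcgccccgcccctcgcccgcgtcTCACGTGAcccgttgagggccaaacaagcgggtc
Of the 5 genes with the element, Atp6v1a and 1 of the 2 probe sets of Mcoln1 lay lower at an unadjusted p under 0.05. Ctsd (-0.20 ± 0.15), Atp6v0d1 and Ctsa did not, on the brightest probe set of each.

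**Figure D3:**
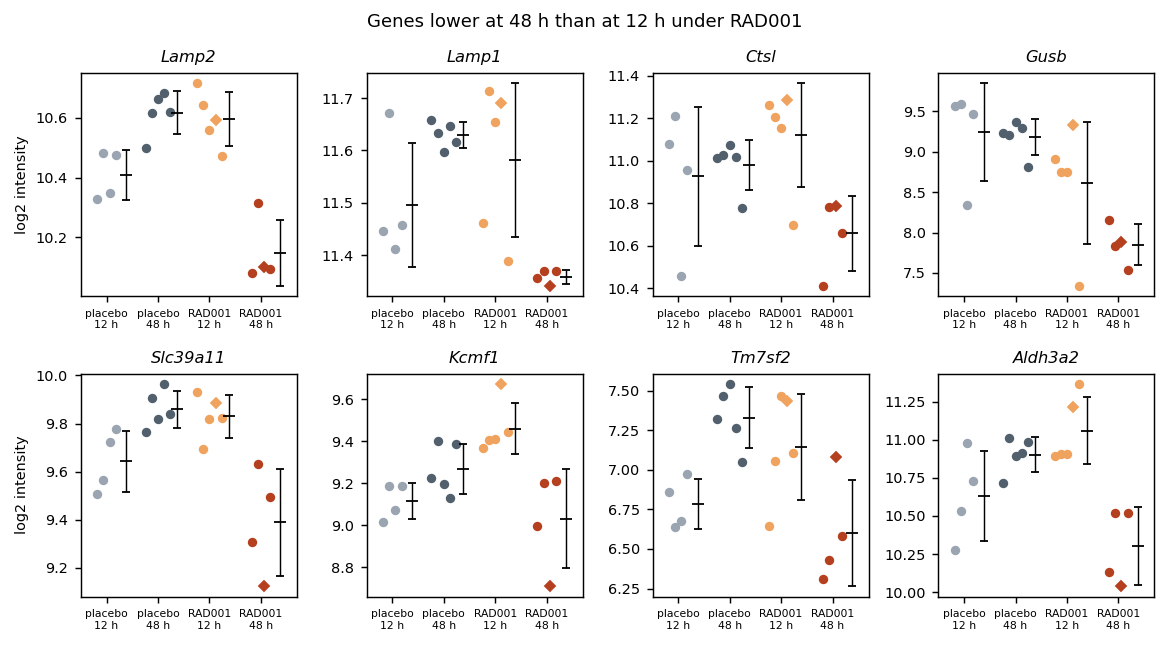
Log2 intensity (y axis) of 8 genes lower at 48 h under RAD001, by treatment and time. Points are arrays, diamonds are the RAD001 arrays numbered 4, and bars give mean ± SD. The 48 h RAD001 points of Lamp2, Lamp1, Slc39a11, Kcmf1 and Aldh3a2 lie below all 12 h RAD001 points, while Ctsl, Gusb and Tm7sf2 overlap between the times.

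The median deviation of the lysosome list from its 12 h RAD001 mean ran from -0.12 to 0.12 at 12 h and was -0.13, -0.18, -0.30 and -0.34 at 48 h, with no overlap. Placebo arrays ran from -0.17 to 0.05 at 12 h and from -0.11 to 0.05 at 48 h. Members lower at an unadjusted p under 0.05 numbered 7 without 48 h replicate 5, 7 after median scaling and 4 without both arrays numbered 4, where the median was -0.19. The change differed from that with placebo at an unadjusted p under 0.05 for 4 members, and for none at the adjusted threshold. All 4 differences of the 24 measured were negative, as were 393 of all 9627 features at that unadjusted p.

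**Figure D4:**
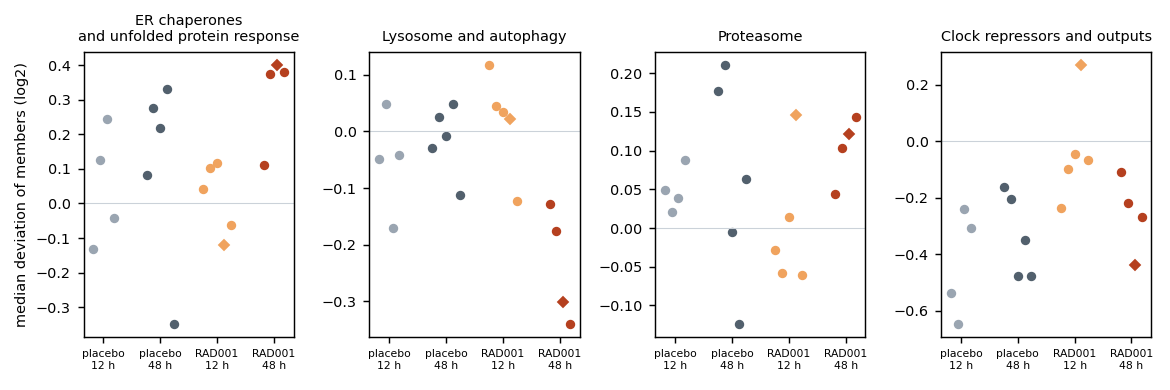
Median deviation (y axis, log2) of the measured members of 4 gene lists from their mean over the RAD001 12 h arrays, for each array of transgenic glands. Diamonds are the RAD001 arrays numbered 4. The lysosome values at 48 h with RAD001 (-0.34 to -0.13) lie below those at 12 h (-0.12 to 0.12), while the ER values of the times touch (0.11 on the lowest 48 h array and 0.12 on the highest 12 h array).

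Genes outside these lists lay lower by similar amounts. Kcmf1, a ubiquitin ligase, stood between 9.37 and 9.67 at 12 h and at 9.00, 9.20, 8.71 and 9.21 at 48 h (-0.43 ± 0.09, adjusted p 0.059 in limma), with 0.24 ± 0.63 and -0.24 ± 0.18 on its dimmer probe sets. Kcmf1 exceeded placebo by 0.35 at 12 h (adjusted p 0.045). Slc39a11, a zinc transporter, stood between 9.69 and 9.93 at 12 h and at 9.31, 9.63, 9.12 and 9.50 at 48 h (-0.44 ± 0.10, adjusted p 0.059). Neither overlapped between the times. Ap3s1, a subunit of the AP-3 adaptor that sorts proteins to lysosomes, differed by -0.42 ± 0.11 and the fucosidase gene Fuca2 by -0.33 ± 0.09. Tmsb4x, which binds actin monomers, differed by -0.40 ± 0.09 and Ube2d3, a ubiquitin-conjugating enzyme, by -0.50 ± 0.14. The 7 probe sets of Ube2d3 ran from -0.57 to 0.29, with 2 above 0.

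Several enzymes and transporters were among those with the smallest p. Aldh3a2, which oxidises fatty aldehydes, stood at 10.89, 10.91, 10.91, 11.22 and 11.37 at 12 h and at 10.13, 10.52, 10.04 and 10.52 at 48 h (-0.76 ± 0.19), against 0.27 ± 0.19 with placebo. Arg2, the mitochondrial arginase, stood between 9.21 and 9.57 at 12 h and at 8.34, 8.75, 8.45 and 8.99 at 48 h (-0.75 ± 0.18), but differed by -0.40 ± 0.18 with placebo too. Slc26a4, the anion exchanger pendrin, differed by -0.70 ± 0.18 with RAD001 and -0.38 ± 0.18 with placebo. Pdgfd, a growth factor, differed by -1.03 ± 0.28 at low levels, from 5.93 to 7.11 at 12 h and from 5.07 to 6.16 at 48 h. Hadhb, of fatty acid oxidation, and Cmpk1, a nucleotide kinase, each differed by -0.41 ± 0.11, and Cpeb4, which binds messenger RNA, by -0.48 ± 0.13.

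Among genes that lay higher, Ephx1, the microsomal epoxide hydrolase, stood at 9.16, 9.27, 9.08, 8.67 and 9.65 at 12 h and at 9.99, 9.78, 9.67 and 9.90 at 48 h. The times did not overlap (0.67 ± 0.14, limma adjusted p 0.059), and RAD001 exceeded placebo by 0.64 at 48 h (adjusted p 0.0081) but not at 12 h (-0.09). Chtf8, of a clamp loader complex, stood at 8.37, 7.55, 8.01, 7.21 and 8.45 at 12 h and at 8.72, 8.62, 8.59 and 8.80 at 48 h (0.77 ± 0.18). It exceeded placebo by 1.14 at 48 h (adjusted p 0.00019). Aldh9a1, an aldehyde dehydrogenase, differed by 0.67 ± 0.16, though its second probe set gave 0.03. Qdpr, which regenerates tetrahydrobiopterin, differed by 0.52 ± 0.13, Myg1 by 0.49 ± 0.10 and Ica1 by 0.51 ± 0.11, with -0.05 on the other Ica1 probe set.

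Respiratory chain genes were divided. Of 28 measured, 3 lay higher at an unadjusted p under 0.05 (10.7%, against 5.49% of all features). At that p 4 lay lower (14.3%, against 5.3%), and the median was -0.01. Ndufs8 of complex I stood at 8.64, 8.68, 8.74, 8.62 and 8.68 at 12 h and at 9.00, 8.95, 9.10 and 9.00 at 48 h (0.34 ± 0.10), while its 6 probe sets ran from -0.02 to 0.37. Ndufa9 of the same complex differed by 0.22 ± 0.08. Uqcrfs1, the iron-sulphur protein of complex III, stood at 10.29, 10.32, 10.24, 10.42 and 10.38 at 12 h and at 9.51, 9.82, 10.18 and 10.04 at 48 h (-0.44 ± 0.11). Atp5c1 of the ATP synthase differed by -0.23 ± 0.08, and by 0.11 on its other probe set. None of these 4 genes, picked for the smallest p of the list, overlapped between the times. In the whole list 3 members lay fully above and 3 fully below, against 2.33% and 1.53% of all features.

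Genes of sterol export lay higher. Of 8 listed, 5 were measured and all 5 lay higher, 2 at an unadjusted p under 0.05 (40%, against 5.49% of all features). The list's median was 0.47 with RAD001, 0.02 in transgenic placebo and 0.43 in wild type placebo glands. Pltp, the phospholipid transfer protein, stood at 7.69, 7.74, 7.67, 7.36 and 7.55 at 12 h and at 8.45, 7.97, 8.45 and 8.32 at 48 h (0.69 ± 0.19). Apoe, the apolipoprotein, stood at 9.37, 9.18, 8.74, 8.58 and 9.45 at 12 h and at 9.51, 9.77, 10.21 and 9.74 at 48 h (0.74 ± 0.25). Neither overlapped. Both exceeded placebo at 48 h, Pltp by 1.24 (adjusted p 0.00013) and Apoe by 1.07 (adjusted p 0.013), and neither passed at 12 h. Abca1, the cholesterol exporter, was instead 1.07 above placebo at both times and differed between them by 0.27 ± 0.17. Mylip, a ligase that degrades the LDL receptor, differed by 0.47 ± 0.24. Without both arrays numbered 4 the median was 0.29 and 1 member had an unadjusted p under 0.05.

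Of 19 measured genes of cholesterol synthesis and uptake 1 lay lower and 0 higher at an unadjusted p under 0.05, and the median was -0.10. The share lower was 5.26%, against 5.3% of all features. RAD001 against placebo had a median of -0.43 at 12 h and -0.37 at 48 h, with 1 and 5 of the 19 past the adjusted test. Against placebo Fdps, farnesyl diphosphate synthase, stood at -1.0 at 12 h and -1.37 at 48 h, both past the test, and it differed between the times by -0.20 ± 0.20. Cyp51, a demethylase of the pathway, stood at -2.17 against placebo at 48 h (adjusted p 0.00011) and differed between the times by -0.45 ± 0.32, or 0.01 without both arrays numbered 4. Hmgcs1 read 4 on 12 h replicate 5 and 7.21 to 7.54 on the other 8 arrays.

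Tm7sf2, a sterol reductase of the same pathway, differed in opposite directions with drug and placebo. It stood at 6.64, 7.06, 7.47, 7.44 and 7.11 at 12 h and at 6.31, 6.43, 7.08 and 6.58 at 48 h with RAD001 (-0.54 ± 0.15). Placebo arrays read 6.86, 6.64, 6.67 and 6.97 at 12 h and 7.32, 7.47, 7.54, 7.27 and 7.05 at 48 h (0.54 ± 0.15). The placebo times did not overlap and the RAD001 times did. The difference of the changes was -1.08 ± 0.22, with an unadjusted p of 1.6e-05 and a limma adjusted p of 0.052.

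Other genes with a small p for that difference did not pass either. Lamp2 and Slc39a11 each differed from placebo by -0.66 (adjusted p 0.052 and 0.058 in limma), and Kcmf1 by -0.58. Trappc12, of a vesicle tethering complex, stood at 0.30 ± 0.10 with RAD001 and -0.39 ± 0.10 with placebo, a difference of 0.69 ± 0.15 (adjusted p 0.058). Its RAD001 arrays stood at 7.21, 7.31, 7.31, 6.70 and 6.99 at 12 h and at 7.25, 7.49, 7.45 and 7.45 at 48 h. Mt1, a metallothionein that binds zinc, had opposite signs as well, at -0.46 ± 0.17 with RAD001 and 0.46 ± 0.17 with placebo. The splicing factor Sf3b2 and the histone chaperone Set lay higher with RAD001 (0.41 and 0.32) and had -0.27 each with placebo. With RAD001 the 4 probe sets of Sf3b2 ran from 0.06 to 0.42.

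Glycolysis genes had a negative median against placebo at both times. Of 13 glycolysis genes measured, 0 lay higher at 48 h and 2 lower (15.4%, against 5.3% of all features) at an unadjusted p under 0.05. The median against placebo was -0.61 at 12 h and -0.80 at 48 h, with 5 and 7 of the 13 past the adjusted test, and between the times it was -0.05. For 19 hypoxia targets outside glycolysis the medians against placebo were -0.22 and -0.26, with 1 and 5 past the adjusted test. Pgk1, phosphoglycerate kinase, stood at 11.47, 11.75, 11.79, 12.25 and 11.08 at 12 h and at 11.29, 11.25, 11.29 and 10.86 at 48 h (-0.49 ± 0.15). Aldoc, an aldolase, stood between 7.92 and 8.72 at 12 h and between 7.71 and 7.90 at 48 h (-0.48 ± 0.16). Aldoc did not overlap between the times and Pgk1 did. Against placebo at 48 h Pgk1 stood at -0.98 (adjusted p 0.00019) and Aldoc at -1.21 (adjusted p 6.7e-05), and neither passed at 12 h. Hk2 and Pfkl, a hexokinase and a phosphofructokinase, passed at both times, Hk2 at -0.68 and -0.60 and Pfkl at -1.05 and -0.84, and differed between the times by 0.17 ± 0.17 and 0.19 ± 0.19.

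The hypoxia list was mixed. Of 19 measured genes, 2 lay higher (10.5%, against 5.49% of all features) and 1 lower (5.26%, against 5.3%) at an unadjusted p under 0.05. Plod2, a collagen lysyl hydroxylase, stood between 8.35 and 8.72 at 12 h and at 7.80, 8.15, 7.98 and 8.21 at 48 h, with no overlap (-0.48 ± 0.13), and stood at -0.90 against placebo at 48 h (adjusted p 0.00011). Bnip3, a mitophagy receptor, stood at -0.79 against placebo at 12 h and -1.41 at 48 h, both past the test, and differed between the times by -0.35 ± 0.18. The prolyl hydroxylases P4ha1 and P4ha2 lay the other way, at 0.52 ± 0.22 and 0.39 ± 0.15, and P4ha2 had 0.46 ± 0.15 with placebo too. A second probe set of P4ha1 gave -0.09 ± 0.17.

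Of 10 measured repressors and output genes of the circadian clock, 9 lay lower. At an unadjusted p under 0.05, 3 did (30%, against 5.3% of all features). The list median was -0.23 with RAD001, 0.13 in transgenic placebo and -0.20 in wild type placebo glands. Without 48 h replicate 4, 1 member lay lower at that p, and without both arrays numbered 4, 2 did and the median was -0.08. Dbp, an output factor, stood at 6.44, 6.92, 6.94, 7.13 and 7.35 at 12 h and at 6.58, 6.50, 6.61 and 6.35 at 48 h (-0.45 ± 0.16). The related factor Tef differed by -0.28 ± 0.16, the receptor gene Nr1d2 by -0.43 ± 0.19 and the repressor Cry2 by -0.40 ± 0.18. RAD001 against placebo at 12 h passed the test for Nr1d2 (0.94), Cry2 (0.68) and Tef (0.60), and at 48 h for none of them. The 12 h value of Cry2 was highest on replicate 4 (8.21), and without both arrays numbered 4 its difference was -0.08. In wild type placebo glands Dbp (-0.68) and Tef (-0.58) fell between the same times. The sources used here do not give the hour of day at which glands were taken.

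**Figure D5:**
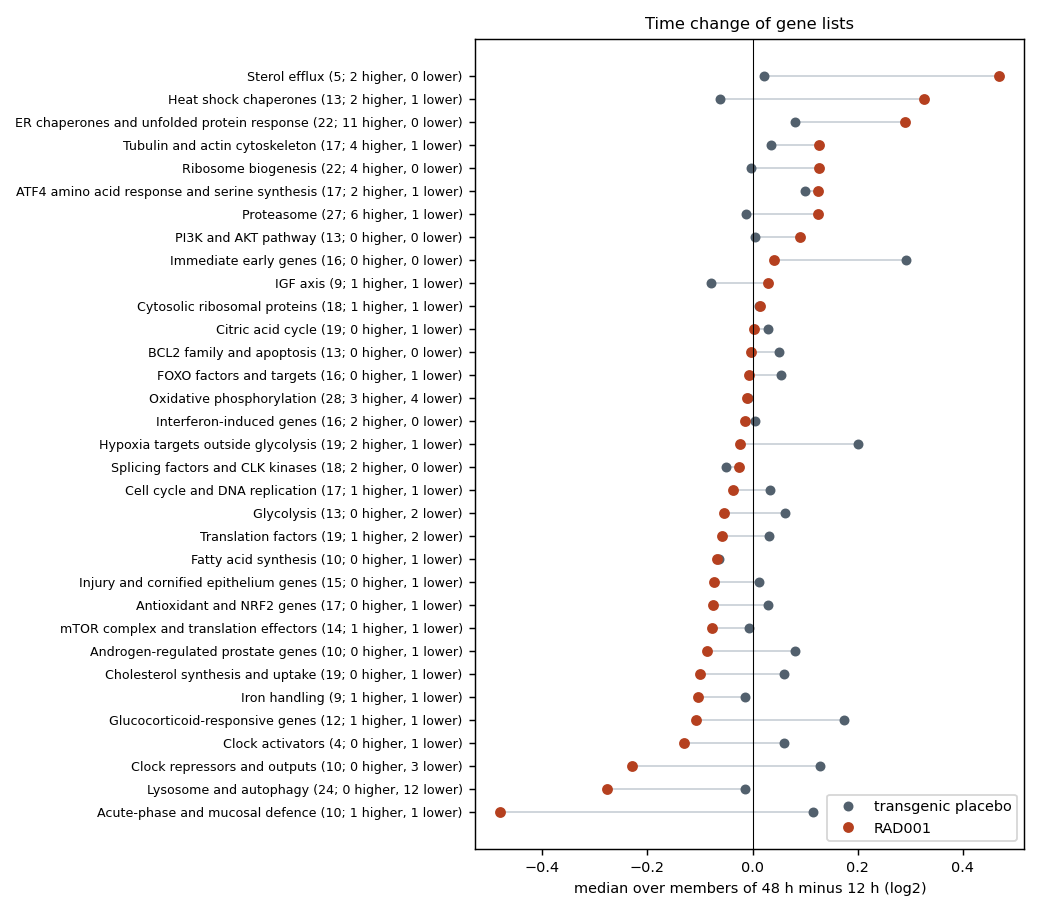
Median difference of 48 h minus 12 h (x axis, log2) over the measured members of each pathway list, with RAD001 and with placebo in transgenic glands. Labels give the number of members measured and those higher or lower at an unadjusted p under 0.05 with RAD001. The ER list (11 of 22 higher) and the lysosome list (12 of 24 lower) have the most members past that p. Without both arrays numbered 4 the ER list had 5 higher and the proteasome list 7, and the median of the acute-phase list moved from -0.48 to -0.07.

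Some of the largest values rested on scattered arrays. Saa2, an acute-phase protein, differed by 2.89 ± 0.77, with 4, 9.71, 9.61, 4 and 7.84 at 12 h and 9.44 to 10.30 at 48 h. It is listed at the floor on 12 h replicates 1 and 4, and its difference was 0.87 when values listed at exactly 0 were taken as missing. Cxcl15, a chemokine of epithelium, differed by -1.88 ± 0.67 and read 4 on 48 h replicate 1. Th, tyrosine hydroxylase, ranged from 4.21 to 8.20 at 12 h. Eif3a and Igf2 read 4 on 48 h replicate 4, against 10.37 or more and 7.48 or more on the other 8 arrays, and without that array their differences were -0.18 and -0.22.

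Genes of the targeted pathway and a main product of the tissue showed no difference past the test. Akt1 stood between 9.50 and 9.72 at 12 h and between 9.49 and 10.02 at 48 h (0.12 ± 0.13). Mtor differed by 0.16 ± 0.44 on its brightest probe set and by -0.36 ± 0.14 on the other (unadjusted p 0.011). Eif4ebp1, a translational repressor and mTOR substrate, differed by -0.09 ± 0.16. Of 14 measured mTOR complex and translation genes, 1 lay higher (Rps6, 0.39 ± 0.19) and 1 lower (Eif4b, -0.27 ± 0.13) at an unadjusted p under 0.05. The share was 7.14% on each side, against 5.49% higher and 5.3% lower of all features. The glucose transporter gene Slc2a1 differed by 0.01 ± 0.47 and Vegfa by -0.12 ± 0.13. Pbsn, probasin, a secretory product of mouse prostate, was bright on all arrays, from 10.61 to 12.67 at 12 h and from 11.92 to 12.58 at 48 h. Its lowest value was on 12 h replicate 4.

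No cell type list had more than 1 marker on either side of 0 past the unadjusted p. At that p 5.49% of all features lay higher and 5.3% lower. Of 15 measured luminal epithelial markers 0 lay higher and 1 lower at an unadjusted p under 0.05 (Foxa1, -0.21 ± 0.10), with a list median of -0.12. Of 8 basal markers 1 lay higher (Krt5, 0.40 ± 0.16) and 0 lower, and 12 smooth muscle and 15 fibroblast markers gave 0 in either direction, with medians of -0.07 and 0.03. Of 10 macrophage markers 1 lay higher and 1 lower. All 4 adipocyte markers measured lay lower, 1 at that p (Retn, -0.32 ± 0.15), with a median of -0.28. Both skeletal muscle markers lay lower, 1 at that p (Ckm, -0.32 ± 0.15), with a median of -0.22, and the 2 mast cell markers had a median of -0.35. The median deviation of the luminal list from its 12 h mean ran from -0.35 to 0.25 at 12 h and from -0.22 to 0.28 at 48 h, so the times overlapped. None of the 6 seminal vesicle markers passed the filter on dim probe sets. The part of cell composition in the differences above was not tested.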

How the data were processed

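Affymetrix arrays of ventral prostate RNA were analysed from probe set intensities deposited by the authors on a linear scale, with array medians from 91.6 to 109. The software and scaling behind them are not given in the sources used here. Intensities under 16 were set to 16 and taken to log2, a step added to the deposited values. Of 22626 probe sets, 20380 had 1 gene symbol, 691 several and 1555 none in the platform annotation, and only the first kind was named. Left out were 2 probe sets with 3 values beyond the scanner maximum of 65535. Probe sets with a mean under the 40th percentile were dropped, the brightest was kept per gene, and 9627 features remained (8496 named).

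limma 3.58.1 (R 4.3.3) fitted 9 group means over 42 arrays, with an intensity trend and Benjamini-Hochberg adjustment (threshold 0.05). SE is the standard error of this fit. The procedure was tested on simulated data. A second, smaller table on another array type was not used here.

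The genes named were the 15 with the smallest p in each direction, up to 4 per gene list by p, 10 for the difference from placebo, and Akt1, Mtor, Eif4ebp1, Pbsn, Slc2a1 and Vegfa (Rps6kb1 was not measured). Probe sets and alternatives were checked for 119 of the genes with values, and that rule gives 90 of these. The other members of the ER, lysosome and heat shock lists were named after their values were seen. Srsf3, Luc7l3, Slc3a2, Aldh18a1, Vldlr, Retn and Ckm came by the rule too but were not among the 119. The comparison and the 33 pathway and 16 cell type lists were chosen with earlier results of these data known. Alternatives covered the floor, filter, scaling, probe sets, weights, arrays fitted, replicate block and single arrays left out. After seeing the data, 2 were added, leaving out both RAD001 arrays numbered 4 and taking exact zeros as missing.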

Additional observations from a re-analysis of the deposited data

Results flagged for a closer look

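A single array lay far from the rest of its group, by Dixon's criterion, in 32 of 238 pairs of a named gene and a RAD001 group. The criterion flags about 1 in 20 of independent values. Most of these genes were picked by their values and all share the same arrays, so the count cannot be read against that rate. RAD001 12 h replicate 4 was the flagged array in 11 of the 32 pairs and 48 h replicate 4 in 6. The cause was not tested.

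On 12 h replicate 4, ER genes were low, with Hspa5 at 11.09 (nearest array 11.44), Dnajb9 at 8.54 (9.99), Herpud1 at 10.61 (11.22) and Derl3 at 8.44 (9.36). Also low there were Iars at 6.73 (nearest 7.27), Hspd1 at 8.54 (9.07), Sf3b2 at 8.18 (8.61) and Eif4b at 9.50 (9.87). Kcmf1 at 9.67 (nearest 9.44), Ulk1 at 9.44 (9.12) and Cry2 at 8.21 (7.61) were high.

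On 12 h replicate 5, lysosomal genes were low, with Ctsl at 10.70 (nearest array 11.15), Hexa at 9.16 (9.96) and Ctsd at 10.93 (11.71). Calr was low at 11.47 (nearest 11.85), Hmgcs1 was at the floor of 4 and Xbp1 was high at 11.23 (10.91). Psmc3 was high on 12 h replicate 3, at 8.95 (nearest 8.76).

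On 48 h replicate 4, Herpud1, Dnaja1, Igf2 and Eif3a were all at 4, Hadhb was low at 9.07 (nearest 9.56) and Pdia3 high at 10.85 (10.41). That array's median r of 0.873 with the other 8 also lay far from those of its group. On 48 h replicate 1, Ulk1 was high at 9.09 (nearest 8.76), and Fdps at 7.24 (7.69) and Hmgcs1 at 7.26 (7.51) were low. On 48 h replicate 2, Tuba4a was low at 10.89 (nearest 11.30), and Lamp2 at 10.31 (10.10) and Atp6ap1 at 10.26 (10.01) were high. On 48 h replicate 5, Pgk1 at 10.86 (nearest 11.25) and Bnip3 at 9.25 (9.43) were low.

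The change between the times differed between RAD001 and placebo for 1 probe set annotated to 2 genes, by 0.95 on the log2 scale, with 0.52 under RAD001 and -0.43 with placebo.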

How the results depend on the processing

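As reported, 0 features passed between 48 h and 12 h of RAD001. The count was 0 without an intensity trend, with only the compared groups and without both RAD001 arrays numbered 4. It was 1 with no filter, after median scaling and with only 12 h and 48 h arrays, and 2 with a floor of 64, without arrays with over 500 exact zeros and with exact zeros as missing. It was 5 with probe sets tested apart, 7 after quantile normalisation, 9 with a filter at the 60th percentile and 65 with array weights. Leaving out single RAD001 arrays gave 0 to 16, the highest without 48 h replicate 2 and 12 without 12 h replicate 5. Ahsa1 passed in 13, Tuba4a in 8 and Lamp2 in 7 of the 23 alternatives, and 31 of 119 named genes passed in at least 1.

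For transgenic placebo the count was 1 with array weights, with only 12 h and 48 h arrays and without arrays with over 500 exact zeros, and 0 to 1 without single arrays. For wild type placebo it was 2594 with array weights and 995 to 1593 without single arrays, the lowest without 12 h replicate 2. For the difference of the changes it was 6 with the 60th percentile filter, 3 after quantile normalisation and without arrays with over 500 exact zeros, 22 with weights, 0 with probe sets apart and 0 to 3 without single arrays.

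ER members past the unadjusted p numbered 7 to 12 without single arrays and 5 without both arrays numbered 4, and lysosome members 7 to 13, 4 without both and 7 after median scaling. The list medians kept their sign throughout.

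Of the 119 named genes checked, 109 had 1 direction in every alternative. Canx was 0.0268 after quantile normalisation and 0.0072 after median scaling. With array weights Dnajc3 was -0.0503, Eif4ebp1 0.11 and Pbsn -0.13. Without both arrays numbered 4, Herpud1 was 0.25, Dnajc3 -0.12, Dnaja1 0.12, Cyp51 0.0148, Mtor -0.0043 and Pbsn -0.0860. With exact zeros as missing, Herpud1 was 0.38 and Dnaja1 0.27. Without single arrays the ranges were -2.28 to 0.38 for Herpud1, -0.0149 to 0.15 for Calr, -0.0787 to 0.0056 for Canx, -0.0895 to 0.24 for Dnajc3 and -1.71 to 0.27 for Dnaja1. They were -0.23 to 0.0047 for Eif4ebp1, -0.12 to 0.40 for Pbsn and -0.0573 to 0.0800 for Slc2a1. The cause was not tested.

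The main fit did not pair arrays by replicate number, and what a shared number stands for was not tested. Same-numbered RAD001 arrays correlated in their deviations at -0.01, 0.07, 0.04 and 0.16, and 3 of 4 arrays at 48 h correlated best with their own number. With the replicate number as a block, 0 features passed under RAD001 and 0 for the difference of the changes. The number of arrays limits the precision, and genes with arrays at the floor have the widest spread.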

Other observations

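Of 18 measured splicing factors and CLK kinases, 2 lay higher and 0 lower at 48 h of RAD001 at an unadjusted p under 0.05. The share higher was 11.1%, against 5.49% of all features. The 2 were the splicing factors Srsf3 (0.49 ± 0.15 SE) and Luc7l3 (0.47 ± 0.20), and the list median was -0.03. Of 17 genes of the ATF4 amino acid response, 2 lay higher (11.8%, against 5.49% of all features) and 1 lower (5.88%, against 5.3%) at that p. Slc3a2, the heavy chain of amino acid transporters, differed by 0.23 ± 0.10, and Aldh18a1, of proline synthesis, by 1.61 ± 0.75. Vldlr, a lipoprotein receptor, differed by -0.39 ± 0.16. Of 13 genes of the PI3K and AKT pathway, 12 lay higher, 0 of them at that p, with a median of 0.09. None of these genes passed the adjusted threshold.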
